A study of Mus musculus with 19 samples.

Results

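The colony stimulating factors are secreted proteins that direct the survival, growth and output of macrophages, granulocytes and their precursors. Csf1 and Il34 encode the ligands of the receptor tyrosine kinase CSF1R, on which most tissue macrophages depend. Csf2 encodes GM-CSF, whose receptor joins a ligand-binding chain from Csf2ra to a signalling chain from Csf2rb, and Csf3 encodes G-CSF, whose receptor comes from Csf3r and is typical of neutrophils and their precursors. Adgre1 encodes F4/80, a surface protein of mouse macrophages. In sensory ganglia, CSF1 made by injured neurons is known to act on nearby macrophages and, through the central axon, on spinal microglia. These 9 genes, found by their symbols in the deposited table of 36682 genes, are described here in dorsal root ganglia, which hold the cell bodies of sensory neurons.

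RNA was sequenced in 19 libraries of male mice. Each is taken as 1 mouse from its own number in the labels, which do not state it outright, so p-values measure the spread between these samples. Every mouse, controls included, was homozygous for MaFIA (macrophage Fas-induced apoptosis), a transgene in which the Csf1r promoter drives a Fas fusion protein that the dimerizing drug AP20187 activates, so cells that use this promoter can be killed. Csf1r is thus both a measured gene and the source of the promoter of the transgene, whose own transcript was not analysed here. DMM AP20187 mice (n = 5) and DMM vehicle mice (n = 5) had an osteoarthritis model, surgical destabilization of the medial meniscus of the knee, and were treated 8 weeks later. Naive AP20187 mice (n = 4) and naive vehicle mice (n = 5) were unoperated and of matched age. Drug or vehicle was given intraperitoneally each day on 5 days in a row, and ganglia L3 to L5 were pooled; in DMM mice they came from the side of the operated knee. The side in naive mice, and whether ganglia of more than 1 mouse went into a pool, are not stated in the sources used here. Mice are named by their group and the number in their label, and values are listed in the order of those numbers: 58 to 62 in DMM AP20187, 32, 33, 34, 63 and 64 in DMM vehicle, 1, 3, 4 and 5 in naive AP20187 and 1 to 5 in naive vehicle.

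The libraries held 60984830 to 74691396 counts in genes. Levels are in CPM, counts scaled to a common library size with TMM factors, and levels are compared between genes only in FPKM, which also divides by transcript length. Neuron markers were present in every library, at a summed 1789 to 19568 CPM over 11 genes, and none of the 11 was at 0 in any library. In bulk tissue, fewer cells of a type and less RNA per cell cannot be told apart, nor can more cells and more RNA. The summed level of 12 neutrophil-lineage markers, none at 0 in any library, was 17482 to 30174 CPM in DMM AP20187 and 427 to 8313 in DMM vehicle, and 8356 to 28490.1 CPM in naive AP20187 and 919 to 2491 in naive vehicle. Of these 12 genes, 9 were higher with AP20187 by the test below in DMM and 10 in naive mice, beside 11.3% and 8.61% of all tested genes. The summed level of 8 monocyte markers, none at 0 in any library, did not overlap either, at 3463 to 9011 CPM in DMM AP20187 and 227 to 1948 in DMM vehicle, and at 1755 to 5179 in naive AP20187 and 318 to 1235 in naive vehicle. Of these 8 genes, 4 were higher and 1 lower in DMM, where 11.3% of all tested genes were higher and 12.4% lower, and 3 and 1 in naive mice, where 8.61% and 2.57% were. Chil3, which neutrophil precursors also express, was the most abundant of them with AP20187 (log2 fold change 3.91, adjusted p 0.000717 in DMM; 3.75, adjusted p 0.00205 in naive mice), and Ccr2, a chemokine receptor of inflammatory monocytes, was the lower one (-2.59, adjusted p 0.00426; -2.05, adjusted p 0.0342). DMM vehicle 64 stood apart in its group, with 8313 CPM of the neutrophil-lineage markers, 1948 of the monocyte markers and 5581 of the neuron markers. It also held 26330 CPM of erythroid markers, against 1566 to 11378 in the other DMM vehicle mice, and 168 of B lineage markers (12.4 to 85.6). Bone and cartilage genes were at 176 CPM in it (20.7 to 45.0) and dendritic cell markers at 1148 (285 to 709). In naive vehicle 3, 15 macrophage markers summed to 421 CPM, against 92.1 to 223 in the other naive vehicle mice. The naive AP20187 libraries held 1501 to 2311 CPM of 6 skeletal muscle genes, against 11.5 to 408 in naive vehicle, and DMM vehicle 32 held 1766 CPM of them against 13.8 to 226 in the other DMM vehicle mice. The part of any of these in the differences below was not tested, except where a value without a library is given.

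With AP20187 the receptor genes Csf2rb and, in DMM, Csf2ra rose, and so did the ligand gene Csf1, while Csf1r, Il34, Adgre1 and Csf3r did not pass the test; the calls of Adgre1 and Csf3r differed between tools. The test was edgeR's quasi-likelihood test with Benjamini-Hochberg adjustment over 22778 genes, and called means an adjusted p under 0.05. Of the 9 genes, 8 passed the filter on low counts, but Csf3 did so only through the AP20187 libraries, so it had to differ and is left out of these counts. In DMM, 3 of the other 7 were called, all higher with AP20187 (Csf1, Csf2ra and Csf2rb), where 23.8% of all tested genes were called, 11.3% higher and 12.4% lower. In naive mice 2 of 7 were called, both higher (Csf1 and Csf2rb), where 11.2% of all genes were called, 8.61% higher and 2.57% lower. Over all tested genes the median effect was -0.10 in DMM and -0.07 in naive mice (log2). Without DMM vehicle 32 the effects in DMM were 0.86 for Csf1 (adjusted p 0.00617), 1.41 for Csf2ra (adjusted p 0.0390) and 3.57 for Csf2rb (adjusted p 0.000335), each still called. The plot of CPM by library shows the spread behind these calls.

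**Figure D1:**
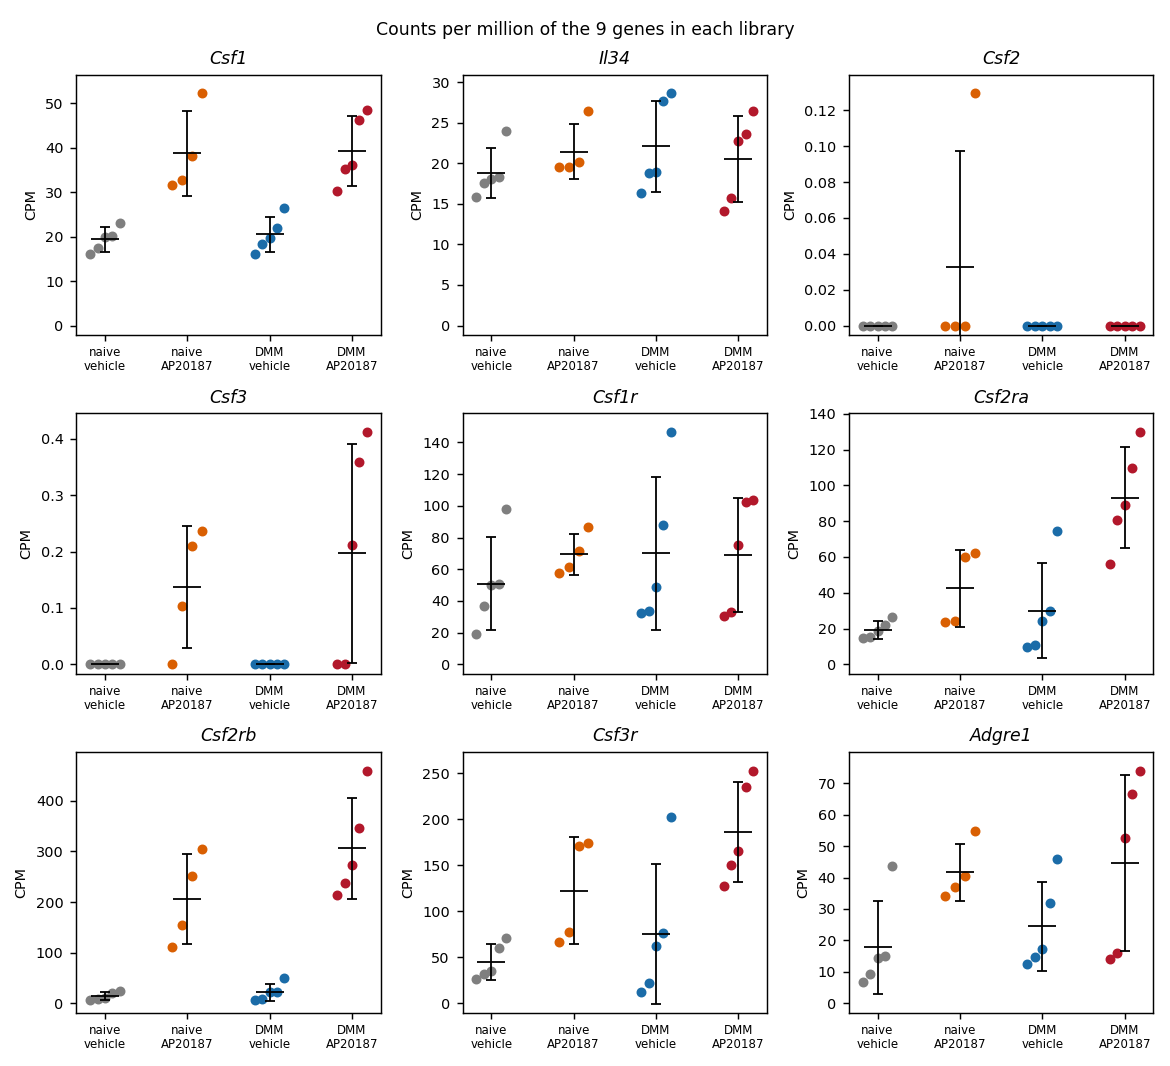
Scaled counts (CPM, linear axis) of each of the 9 genes; each point is 1 library (1 mouse), the horizontal bar is the group mean and the whisker the SD, for naive vehicle (n = 5), naive AP20187 (n = 4), DMM vehicle (n = 5) and DMM AP20187 (n = 5). The AP20187 points of Csf1 and Csf2rb lie above all vehicle points in both DMM and naive mice, those of Csf1r and Il34 overlap them, and Csf2 and Csf3 are at 0 in every vehicle library.

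Csf1, the CSF1R ligand with the wider tissue distribution, was higher with AP20187 in both kinds of mice (ENSMUSG00000014599, chr3:107648364-107667785, minus strand, in GRCm39, as are all gene positions). It was at 48.6, 30.3, 36.1, 35.3 and 46.2 CPM in DMM AP20187 and at 16.1, 18.4, 21.9, 19.6 and 26.5 in DMM vehicle. In naive mice it was at 38.2, 52.3, 32.8 and 31.7 CPM with AP20187 and at 17.4, 20.2, 19.9, 23.2 and 16.2 with vehicle. No AP20187 library fell within the range of vehicle in either comparison, and the vehicle groups of DMM and naive mice covered nearly the same range. The means were 39.3 ± 7.79 and 20.5 ± 3.94 CPM in DMM (SD, n = 5 each), 1.92-fold (log2 fold change 0.94, SE 0.18, adjusted p 0.00193). They were 38.7 ± 9.49 (n = 4) and 19.4 ± 2.73 (n = 5) in naive mice, 2.00-fold (log2 fold change 1.00, SE 0.19, adjusted p 0.00313). The difference between these effects was -0.06 on the log2 scale (SE 0.26, adjusted p 0.985). Against DMM vehicle 63 and 64 alone, the effect in DMM was 0.78 (adjusted p 0.0878) and was not called. The summed level of 6 endothelial markers was 158 to 294 CPM with AP20187 and 67.1 to 146 with vehicle in DMM, without overlap, and 210.03 to 477 and 63.9 to 306 in naive mice, where the ranges overlapped. Of these 6 genes, 3 were called higher in DMM (11.3% of all genes) and 2 in naive mice (8.61%), none lower. Their sum had Pearson's r of 0.836 with Csf1 over the 19 libraries (0.565 after group means were subtracted). Within groups other sums followed Csf1 more closely, among them erythroid (0.736), B lineage (0.689), T and NK (0.682) and bone and cartilage markers (0.662). Over the 19 libraries erythroid and B lineage sums were at -0.187 and -0.647. Neuron and nerve injury sums ran the other way, with r of -0.797 and -0.847 (-0.701 and -0.766 within groups). The part of any of these in the difference was not tested.

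Il34, the other CSF1R ligand, made in the nervous system mainly by neurons and in skin by keratinocytes, had ranges that overlapped in every comparison (ENSMUSG00000031750, chr8:111468461-111532535, minus strand). It was at 26.5, 23.6, 22.7, 15.7 and 14.1 CPM in DMM AP20187 and at 18.8, 16.4, 18.9, 28.7 and 27.7 in DMM vehicle. In naive mice the values were 20.1, 26.5, 19.6 and 19.6 CPM with AP20187 and 18.1, 18.3, 24.0, 15.9 and 17.5 with vehicle. Within DMM the high libraries were 58 to 60 of the AP20187 mice and 63 and 64 of the vehicle mice. In DMM the AP20187 effect was -0.11 log2 with an SE of 0.20 (adjusted p 0.751), and in naive mice 0.19 with an SE of 0.21 (adjusted p 0.557). In DMM its sign changed under limma voom and against DMM vehicle 32 to 34 (0.18, adjusted p 0.524), while against DMM vehicle 63 and 64 it was -0.42 (adjusted p 0.385).

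Per transcript length, Il34 stood above Csf1 in 18 of 19 libraries. Csf1 FPKM divided by Il34 FPKM was 0.476 to 1.21 in DMM AP20187 and 0.254 to 0.429 in DMM vehicle. It was 0.600 to 0.733 in naive AP20187 and 0.307 to 0.542 in naive vehicle. The lowest AP20187 library thus lay above the highest vehicle library for the balance of the CSF1R ligands in both comparisons. The exception, with more Csf1 than Il34, was DMM AP20187 62.

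The ligand genes Csf2 and Csf3 were at or near the limit of detection. Csf2 (ENSMUSG00000018916, chr11:54138097-54140493, minus strand) had 0 counts in 18 libraries and 8 counts in naive AP20187 5, which is 0.130 CPM, and was not tested. A count of 0 allows up to 3 counts, or 0.0400 to 0.0519 CPM depending on the library, a bound for counting error only. Csf3 (ENSMUSG00000038067, chr11:98592089-98594455, plus strand) had 14, 0, 27, 24 and 0 counts in DMM AP20187 58 to 62 and 6, 14, 0 and 13 in naive AP20187 1, 3, 4 and 5. All 10 vehicle libraries had 0. Its mean of 0.197 ± 0.194 CPM in DMM AP20187 was at least 4.35-fold higher than the floor of DMM vehicle. The mean of 0.138 ± 0.108 CPM in naive AP20187 was at least 3.10-fold higher than that of naive vehicle. These bounds rest on few reads, in 3 of 5 and 3 of 4 AP20187 libraries, and no test of Csf3 is given, since the gene entered the fit only through the libraries where it had counts.

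Csf1r, the receptor gene whose promoter drives the suicide transgene, was not lower in either AP20187 group beyond the spread between mice (ENSMUSG00000024621, chr18:61233670-61265221, plus strand). It was at 102, 104, 75.6, 32.8 and 30.6 CPM in DMM AP20187 and at 33.8, 32.7, 48.9, 88.1 and 147 in DMM vehicle. The naive values were 57.8, 86.8, 71.5 and 61.7 CPM with AP20187 and 50.9, 36.6, 98.2, 49.9 and 19.2 with vehicle. The DMM mice of both treatments covered a wide range, while the 4 naive AP20187 mice lay close together inside the range of naive vehicle. The AP20187 effect in DMM was -0.02 log2 with an SE of 0.46 (adjusted p 0.982), and in naive mice 0.45 with an SE of 0.48 (adjusted p 0.554). The value in DMM depended on the vehicle mice used: it was 0.44 (adjusted p 0.480) without DMM vehicle 64, -0.73 (adjusted p 0.479) against DMM vehicle 63 and 64, and 0.84 (adjusted p 0.166) against DMM vehicle 32 to 34, and was called in none of these.

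Adgre1, a marker of mature mouse macrophages, was at 73.9, 66.6, 52.6, 15.9 and 14.1 CPM in DMM AP20187 and at 14.8, 12.4, 17.4, 31.8 and 45.8 in DMM vehicle (ENSMUSG00000004730, chr17:57665691-57790527, plus strand). The naive values were 34.1, 54.7, 40.5 and 37.1 CPM with AP20187 and 14.5, 9.28, 43.6, 14.9 and 6.71 with vehicle. The highest naive vehicle value, in mouse 3, lay inside the AP20187 range and the other 4 lay below it. The AP20187 effect in DMM was 0.87 log2 with an SE of 0.52 (adjusted p 0.242), and in naive mice 1.22 with an SE of 0.55 (adjusted p 0.149). In DMM it depended on the vehicle mice used, at 0.24 (adjusted p 0.905) against DMM vehicle 63 and 64 and 1.59 (adjusted p 0.0470) against DMM vehicle 32 to 34, where it was called. In naive mice it was 1.87 (adjusted p 0.0295) without naive vehicle 3. The 15 macrophage markers, which hold neither Adgre1 nor Csf1r, summed to 269 to 1003 CPM in DMM AP20187 and 161 to 514 in DMM vehicle, and to 456 to 791 in naive AP20187 and 92.1 to 421 in naive vehicle. Of them, 5 of 15 were higher in DMM (11.3% of all genes) and 8 of 15 in naive mice (8.61% of all genes), and none was lower. Timd4, a marker of some resident macrophages, was at 0 in 2 of 4 naive AP20187 libraries, and no other gene of that list was at 0 in any library.

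Adgre1 and Csf1r followed each other across mice but at different ratios with and without AP20187. Their log2 CPM had Pearson's r of 0.906 over the 19 libraries and 0.967 after the group means were subtracted; all correlations here are descriptions over libraries that share their depth and cell makeup. Adgre1 FPKM divided by Csf1r FPKM was 0.819 to 1.29 in DMM AP20187 and 0.557 to 0.779 in DMM vehicle, and 1.01 to 1.12 in naive AP20187 and 0.453 to 0.791 in naive vehicle. In both comparisons every AP20187 library had more Adgre1 for its Csf1r than every vehicle library, including DMM vehicle 64 and naive vehicle 3, although the levels of each gene overlapped.

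Csf2rb, the signalling chain shared by the receptors for GM-CSF, IL-3 and IL-5, had the largest fold change of the 7 tested genes with counts in vehicle libraries (ENSMUSG00000071713, chr15:78209952-78238047, plus strand). It was at 347, 237, 274, 215 and 459 CPM in DMM AP20187 and at 7.0, 8.77, 22.8, 21.3 and 49.7 in DMM vehicle. In naive mice it was at 252, 305, 155 and 111 CPM with AP20187 and at 9.25, 10.6, 20.8, 24.7 and 7.15 with vehicle. All 9 AP20187 libraries lay above all 10 vehicle libraries, the lowest AP20187 value being 111 and the highest vehicle value 49.7 CPM. Mean levels were 306 ± 99.2 against 21.9 ± 17.1 CPM in DMM (SD, n = 5 each), 14.0-fold (log2 fold change 3.80, SE 0.52, adjusted p 0.000153). They were 206 ± 88.5 (n = 4) against 14.5 ± 7.75 (n = 5) in naive mice, 14.2-fold (log2 fold change 3.83, SE 0.53, adjusted p 0.000314). The effects differed by -0.02 (SE 0.67, adjusted p 0.9997). Against DMM vehicle 63 and 64 alone the effect in DMM was 3.10 (adjusted p 0.0106), and against DMM vehicle 32 to 34 it was 4.57 (adjusted p 0.000101). Csf1 and Csf2rb were the genes without overlap in each of these comparisons, where 12.9% of all tested genes in DMM and 15.5% in naive mice did not overlap (8.71% and 9.39% with AP20187 above vehicle).

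Mice carry a close copy of this gene, Csf2rb2, which encodes a beta chain specific to the IL-3 receptor (ENSMUSG00000071714, chr15:78166707-78189921, minus strand). Over the coding sequences of 1 transcript of each, 2503 of 2628 aligned bases were identical (95.2%), with a longest shared run of 242 bases. Of all stretches of 50 coding bases of Csf2rb, 26.0% occurred unchanged in Csf2rb2, and of stretches of 100 bases 11.0% did, so reads could be assigned to either copy. The following 80 coding bases of each (bases 2285 to 2364, counted from 1 at the first base of the start codon, from GENCODE transcripts on GRCm38) are shown because they differ at a pair of positions only, in capitals: T2325A and A2330C, the Csf2rb base first.
Csf2rb: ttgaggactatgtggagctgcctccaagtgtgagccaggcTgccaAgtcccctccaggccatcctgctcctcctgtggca
Csf2rb2: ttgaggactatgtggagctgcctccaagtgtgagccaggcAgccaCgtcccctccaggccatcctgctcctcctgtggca
Csf2rb2 was at 100.3, 73.1, 81.3, 64.3 and 118 CPM in DMM AP20187 and at 3.08, 3.39, 6.25, 5.61 and 10.7 in DMM vehicle. In naive mice it was at 81.9, 115, 70.8 and 57.9 CPM with AP20187 and at 2.36, 2.72, 6.01, 9.97 and 3.05 with vehicle. These groups did not overlap in either comparison (in DMM log2 fold change 3.91, SE 0.43, adjusted p 2.87e-05; in naive mice log2 fold change 4.08, SE 0.44, adjusted p 3.62e-05). Csf2rb2 FPKM divided by Csf2rb FPKM was 0.393 to 0.474 in DMM AP20187, 0.331 to 0.676 in DMM vehicle, 0.4999 to 0.799 in naive AP20187 and 0.391 to 0.654 in naive vehicle, ranges that overlapped between AP20187 and vehicle in both comparisons. Which copy gave the shared reads is uncertain.

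Csf2ra, the ligand-binding chain of the GM-CSF receptor, rose with AP20187 in DMM and did not pass in naive mice with all groups in the fit (ENSMUSG00000059326, chr19:61212395-61216856, minus strand). It was at 109.8, 80.6, 88.8, 55.9 and 129.8 CPM in DMM AP20187 and at 9.88, 10.7, 24.4, 30.1 and 74.7 in DMM vehicle. The naive values were 59.9, 62.3, 24.1 and 23.5 CPM with AP20187 and 18.5, 15.4, 22.1, 26.7 and 14.6 with vehicle. DMM vehicle 64 lay inside the AP20187 range, and the other 4 DMM vehicle mice lay below it. The mean was 93.0 ± 28.2 against 29.9 ± 26.5 CPM in DMM, 3.10-fold (log2 fold change 1.63, SE 0.46, adjusted p 0.0177), and 42.5 ± 21.6 against 19.5 ± 5.01 in naive mice, 2.18-fold (log2 fold change 1.13, SE 0.48, adjusted p 0.127). With only the naive groups in the fit the naive effect was called (1.16, adjusted p 0.0438). The effects differed by 0.51 (SE 0.66, adjusted p 0.933), so a difference between DMM and naive mice was not shown. Against DMM vehicle 63 and 64 alone the effect in DMM was 0.82 (adjusted p 0.344) and was not called. Against DMM vehicle 32 to 34 it was 2.63 (adjusted p 0.000457), and without DMM vehicle 64 it was 2.31 (adjusted p 0.000533).

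Csf3r, the G-CSF receptor gene, was at 235, 151, 165, 127 and 253 CPM in DMM AP20187 and at 12.1, 21.7, 62.1, 76.8 and 203 in DMM vehicle (ENSMUSG00000028859, chr4:125918343-125938233, plus strand). In naive mice it was at 175, 171, 77.8 and 66.3 CPM with AP20187 and at 31.5, 35.0, 60.2, 70.8 and 26.4 with vehicle. The DMM vehicle mice spread from the lowest value of all 19 to one above 3 of the 5 DMM AP20187 mice. The AP20187 effect in DMM was 1.31 log2 with an SE of 0.55 (adjusted p 0.0872), and in naive mice 1.45 with an SE of 0.57 (adjusted p 0.105). The effect in DMM depended on the vehicle mice used: it was 0.40 (adjusted p 0.725) against DMM vehicle 63 and 64, 2.54 (adjusted p 0.00229) against DMM vehicle 32 to 34 and 2.11 (adjusted p 0.00407) without DMM vehicle 64. With DESeq2 both effects passed, at 1.35 (adjusted p 0.0386) and 1.47 (adjusted p 0.0468), and with limma voom too, at 2.21 (adjusted p 0.000404) and 1.45 (adjusted p 0.0371). The effect in DMM also passed with limma on log2(FPKM + 1) and log2(FPKM + 0.1) (1.74 and 1.86, adjusted p 0.0177 and 0.0194), and that in naive mice with only the naive groups in the fit (1.49, adjusted p 0.0277).

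Csf3r, Csf2ra and Csf2rb varied together from mouse to mouse, and of these 3 Csf2rb was the one whose AP20187 and vehicle libraries did not overlap. Within groups, Pearson's r of log2 CPM was 0.965 for Csf2rb with Csf3r, 0.964 for Csf2ra with Csf3r and 0.931 for Csf2ra with Csf2rb (19 libraries less group means). For the neutrophil-lineage sum it was 0.991 with Csf3r, 0.958 with Csf2ra and 0.958 with Csf2rb, and for the monocyte sum 0.965, 0.942 and 0.975. Sums of other lineages were high too, in the same order of genes. They were 0.939, 0.893 and 0.890 for B lineage and 0.907, 0.906 and 0.895 for T and NK markers. Erythroid markers had 0.888, 0.816 and 0.847, and bone and cartilage markers 0.827, 0.870 and 0.814. Csf2rb FPKM divided by Csf3r FPKM was 0.732 to 0.902 in DMM AP20187 and 0.122 to 0.286 in DMM vehicle, and 0.715 to 0.991 in naive AP20187 and 0.134 to 0.173 in naive vehicle. Divided by Csf2ra FPKM it was 1.16 to 1.51, 0.263 to 0.368, 1.66 to 2.55 and 0.193 to 0.372 in the same order of groups. Neither ratio overlapped between AP20187 and vehicle. Csf2ra FPKM divided by Csf3r FPKM was 0.553 to 0.674, 0.463 to 1.02, 0.388 to 0.457 and 0.460 to 0.737 in that order of groups. This ratio overlapped in DMM and was lower with AP20187, without overlap, in naive mice.

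**Figure D2:**
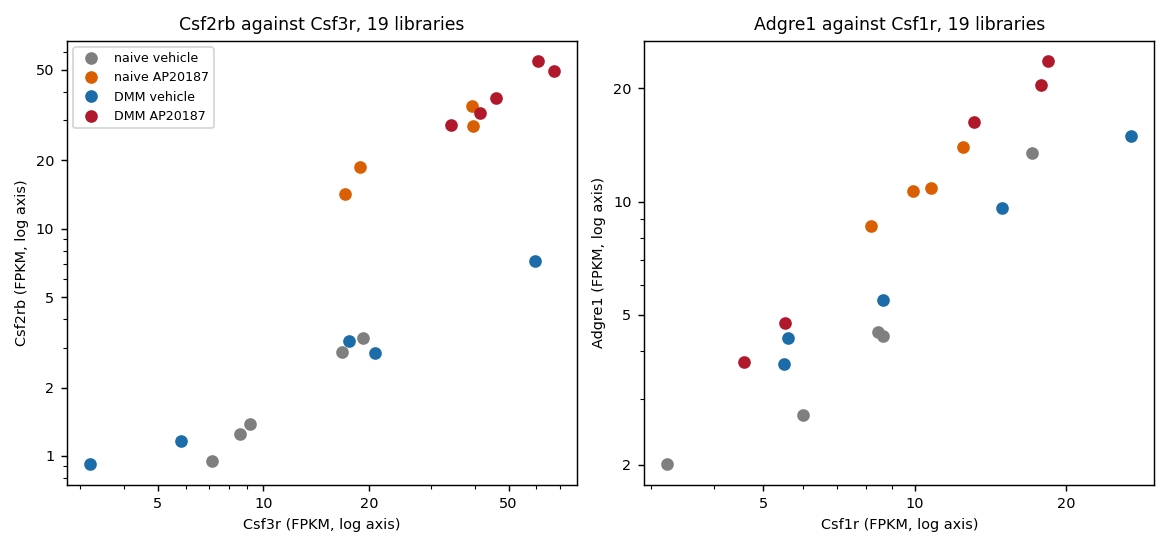
FPKM on log axes of Csf2rb against Csf3r (left) and of Adgre1 against Csf1r (right); each point is 1 of 19 libraries, coloured by group. In both panels the AP20187 points (orange and dark red) lie above the vehicle points (grey and blue) at the same value of the gene on the horizontal axis, with ratios of Csf2rb to Csf3r of 0.715 and more with AP20187 and 0.286 and less with vehicle.

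The order of the genes by FPKM differed between treatments. With vehicle, Csf3r had the highest mean, 21.4 ± 22.6 in DMM and 12.2 ± 5.42 in naive mice (SD, n = 5 each). Csf1r (12.3 ± 9.01 and 8.68 ± 5.18), Il34 (11.3 ± 3.12 and 9.36 ± 1.68), Csf2ra (10.7 ± 9.92 and 6.62 ± 1.78) and Adgre1 (7.62 ± 4.71 and 5.42 ± 4.64) came next, with neighbours that did not differ beyond their spread. Csf1 (3.89 ± 0.923 and 3.58 ± 0.510) and Csf2rb (3.07 ± 2.53 and 1.95 ± 1.06) were last of the genes with counts. Without DMM vehicle 64 the DMM vehicle means were 11.8 ± 8.64 for Csf3r, 10.3 ± 2.72 for Il34, 8.66 ± 4.42 for Csf1r and 6.44 ± 3.53 for Csf2ra (n = 4), so the first place of Csf3r in DMM was within the spread. Its first place in naive vehicle was within the spread as well. There Il34 was above it in mouse 1 (9.07 against 8.59) and mouse 5 (8.68 against 7.11). Csf1r was above it in mouse 3 (17.1 against 16.7), and Csf3r was highest in mice 2 and 4. With AP20187 Csf2rb was second, at 40.5 ± 11.1 in DMM and 24.0 ± 9.27 in naive mice, within the spread of Csf3r at 49.9 ± 13.7 and 28.7 ± 12.4. Csf2ra followed at 31.3 ± 8.61 and 12.5 ± 5.82. The mean of Csf1, 7.22 ± 1.46 and 6.27 ± 1.30, was again under those of Adgre1, Csf1r and Il34. In DMM this was within the spread. Csf1 was above Adgre1 and Csf1r in DMM AP20187 61 and above Adgre1, Csf1r and Il34 in DMM AP20187 62.

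**Figure D3:**
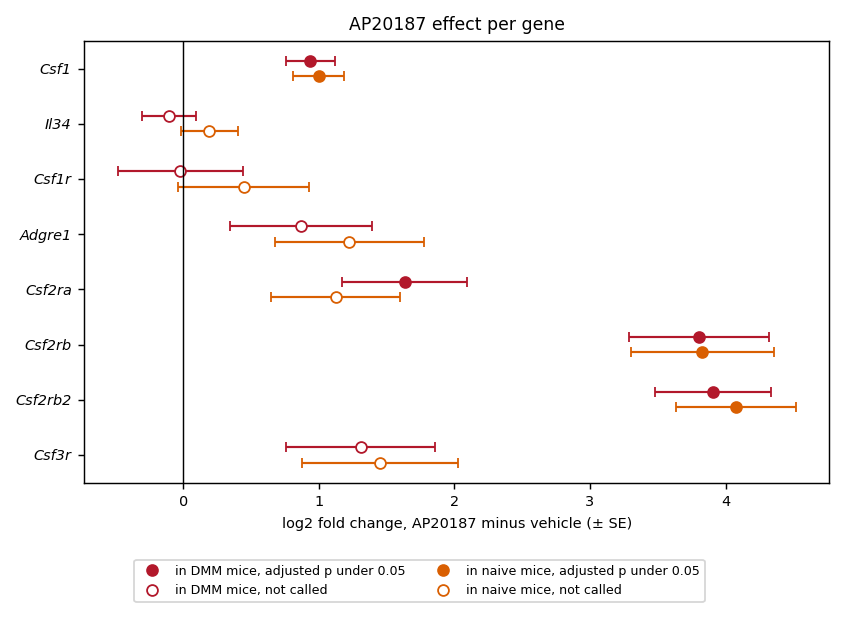
Log2 fold change with its SE (edgeR, AP20187 minus vehicle) of 7 of the 9 genes and of the copy Csf2rb2, in DMM mice (dark red) and naive mice (orange); filled points have an adjusted p under 0.05. Csf2rb and Csf2rb2 lie near 4 in both, Csf1 near 1 in both, Il34 near 0 in both, and Csf1r near 0 in DMM and at 0.45 in naive mice. Csf3 is left out because its vehicle libraries were at 0 counts.

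None of these genes passed the threshold between DMM and naive mice. With vehicle, 0 of 7 tested genes were called between DMM and naive mice by edgeR, and 0 had an unadjusted p under 0.05; over all genes 0 were called (0%) and 377 had an unadjusted p under 0.05. DESeq2 called 0 of the 7 and 0 of all genes, and limma voom 0 of the 7 and 1 of all genes. With DMM vehicle 63 and 64 alone as the DMM group, 541 genes were called and still 0 of the 7, with the largest values for Csf3r (1.70, adjusted p 0.0513), Csf2ra (1.48, adjusted p 0.0563) and Csf2rb (1.34, adjusted p 0.0913). With DMM vehicle 32 to 34 alone, 0 genes were called and all 7 values were below 0. With AP20187, edgeR called 0 of the 7, where 0.702% of all genes were called. An unadjusted p under 0.05 was found for 1 of the 7 and for 3795 of the 22778 genes tested, so this is no result about the 7. That gene was Csf2ra, with 2.19-fold more in DMM than in naive AP20187 mice and 4 of 5 DMM libraries above all 4 naive ones (log2 fold change 1.13, SE 0.49, adjusted p 0.254), and voom called it (adjusted p 0.0213). The AP20187 effect differed between DMM and naive mice for 0 of 7 genes by edgeR, DESeq2 and voom, where edgeR called 0.114% of all genes, and an unadjusted p under 0.05 was found for 0 of the 7 and 1748 of all genes.

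The genes around these receptors were described from 5 lists; the neutrophil-lineage and monocyte sums given above were also higher with AP20187 in both comparisons, without overlap, and their part in these lists was not tested. Each count below stands beside 11.3% of all tested genes called higher and 12.4% lower in DMM, and 8.61% and 2.57% in naive mice, and each median beside -0.10 and -0.07 over all tested genes. Of 4 tested genes of the common beta chain family, 2 were higher in DMM (Csf2rb2 and Il3ra) and 1 in naive mice (Csf2rb2), with medians of 0.46 and 1.11 on the log2 scale. Il3ra, the ligand-binding chain of the IL-3 receptor, was at 6.99, 6.19, 5.68, 5.42 and 9.19 CPM in DMM AP20187 and 1.25, 2.03, 2.29, 4.25 and 5.30 in DMM vehicle, without overlap (log2 fold change 1.15, SE 0.33, adjusted p 0.0200; in naive mice log2 fold change 0.97, SE 0.35, adjusted p 0.0762). Il5, a ligand, and Il5ra, its receptor chain, were tested and not called. Of 12 genes of JAK-STAT signalling, its targets and the Src-family kinases, which carry the signal of the GM-CSF and G-CSF receptors, 7 were higher in DMM and 6 in naive mice and none was lower, with medians of 0.69 and 0.77. Socs3, a feedback inhibitor of the G-CSF receptor, was at 44.1 ± 11.0 CPM in DMM AP20187 and 7.87 ± 3.02 in DMM vehicle, or 2.48 log2 with an SE of 0.27 (adjusted p 2.87e-05), and differed by 2.17 in naive mice (SE 0.28, adjusted p 0.000176). The Src-family kinase gene Lyn had log2 fold changes of 1.89 in DMM and 1.96 in naive mice, the kinase gene Pim1 2.64 and 1.90, and Jak2 0.78 and 0.66, all called in both. Stat3 (-0.05 and -0.30), Stat5a (0.64 and 0.73) and Stat5b (0.28 and -0.04) were called in neither.

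Of 16 genes of CSF1R signalling, 6 were higher and 3 lower in DMM, and 3 were higher and none lower in naive mice, with medians of 0.44 and 0.19. The share lower in DMM was near that over all genes (12.4%). Those higher in DMM were Ptpn6 and Inpp5d, which encode phosphatases that limit the signal, Cbl, a ubiquitin ligase that removes the receptor, Plcg2, Syk and Pik3cd. Ptpn6 was at 187 ± 64.9 CPM in DMM AP20187 and 50.6 ± 47.9 in DMM vehicle (log2 fold change 1.89, adjusted p 0.0152; naive 2.01, adjusted p 0.0226), and Plcg2 at 117 ± 34.3 and 32.8 ± 25.4 (1.83, adjusted p 0.0100; naive 1.72, adjusted p 0.0282). Src, Fyn and Mapk3, which neurons also express, were lower in DMM, with log2 fold changes of -0.86, -0.73 and -0.85. Tyrobp, the adaptor DAP12, was called in naive mice (2.16, adjusted p 0.0224) and not in DMM (0.92, adjusted p 0.226). Of the 3 other receptors for IL-34, 2 were lower in DMM, Ptprz1 (-1.20, adjusted p 0.0271) and Sdc1 (-0.57, adjusted p 0.0162), and none was called in naive mice. Trem2 was at 0.32 and 1.67 and was called in neither. The 11 neuron markers summed to 1789 to 8197 CPM in DMM AP20187 and 5581 to 17274 in DMM vehicle, with 8 of 11 called lower, and to 2585 to 13833 and 9128 to 19568 in naive mice, with none called.

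Of 12 transcription factor genes that act in the myeloid lineage and on Csf1r or the receptors here, 6 were higher in DMM and 7 in naive mice, none lower, with medians of 1.13 and 1.11. Spi1, which encodes PU.1, was at 164 ± 56.1 CPM in DMM AP20187 and 27.1 ± 29.1 in DMM vehicle (log2 fold change 2.60, SE 0.58, adjusted p 0.00501), and at 90.3 ± 42.1 and 15.3 ± 7.13 in naive mice (log2 fold change 2.56, SE 0.60, adjusted p 0.0113). Gfi1, a repressor needed for neutrophil formation, differed by 3.20 and 2.84. The ETS-family genes Fli1, Ets1 and Ets2 differed by 1.76, 1.52 and 0.86 in DMM and 1.66, 1.17 and 1.05 in naive mice, each called in both. Cebpb was called in naive mice (3.63, adjusted p 0.0132) and not in DMM (1.91, adjusted p 0.0883), with ranges that overlapped in both. Irf8, needed for monocytes and dendritic cells, was at -0.67 and -0.16, and Runx1 at -0.35 and -0.48, called in neither. The plot of pathway genes shows all 5 lists.

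**Figure D4:**
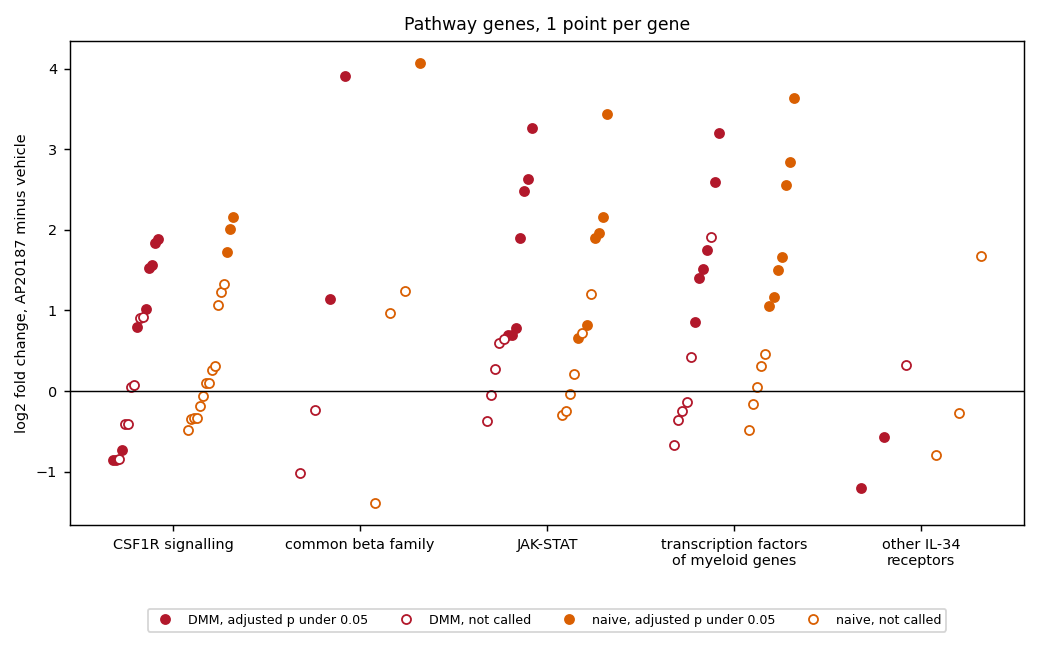
Log2 fold change (edgeR, AP20187 minus vehicle) of each tested gene of 5 lists, 1 point per gene, in DMM mice (dark red) and naive mice (orange); filled points have an adjusted p under 0.05. Filled points lie above 0 in the JAK-STAT and transcription factor lists in both comparisons, and on both sides of 0 for CSF1R signalling in DMM.

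The 250 bases before the transcription start were searched, on both strands, for 4 motifs. GAGGAA is the core that PU.1 binds, and was found in 23.3% of 32841 mouse promoters of this length. The others were TTCNNNGAA for STAT factors (7.02%), TTGCNNAA for C/EBP factors (9.57%) and TGANTCA for AP-1 (6.75%). The motifs did not overlap one another in these windows. RefSeq promoter sequences on GRCm38.p6 were at hand for 4 of the 9 genes, Csf1, Csf2, Csf2ra and Csf3r, and for Csf2rb2, but not for Csf2rb. Those of the receptor genes are shown with the matched letters in capitals. That of Csf1, which held no match, is shown as well. Each sequence ends at the base before the start.
Csf2ra: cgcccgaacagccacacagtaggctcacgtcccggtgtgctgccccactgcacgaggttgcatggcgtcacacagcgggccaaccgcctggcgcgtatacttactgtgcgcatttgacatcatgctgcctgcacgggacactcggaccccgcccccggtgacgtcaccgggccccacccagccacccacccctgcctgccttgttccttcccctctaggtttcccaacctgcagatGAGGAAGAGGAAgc
Csf3r: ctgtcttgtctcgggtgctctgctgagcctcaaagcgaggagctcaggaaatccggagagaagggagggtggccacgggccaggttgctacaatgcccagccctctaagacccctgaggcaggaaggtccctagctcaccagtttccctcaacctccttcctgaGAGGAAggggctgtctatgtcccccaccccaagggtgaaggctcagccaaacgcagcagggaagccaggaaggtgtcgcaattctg
Csf2rb2: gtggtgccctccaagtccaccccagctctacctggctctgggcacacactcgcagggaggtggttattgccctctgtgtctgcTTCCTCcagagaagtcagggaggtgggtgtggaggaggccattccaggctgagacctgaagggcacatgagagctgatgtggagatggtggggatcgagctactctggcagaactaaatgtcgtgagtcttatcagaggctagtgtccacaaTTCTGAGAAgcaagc
Csf1: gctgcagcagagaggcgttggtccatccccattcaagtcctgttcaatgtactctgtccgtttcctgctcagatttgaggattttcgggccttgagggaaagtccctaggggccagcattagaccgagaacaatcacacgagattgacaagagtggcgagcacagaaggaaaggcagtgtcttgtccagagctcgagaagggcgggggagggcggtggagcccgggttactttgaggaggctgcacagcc
The windows are chr19:61228419-61228668, minus strand, for Csf2ra, chr4:126024409-126024658, plus strand, for Csf3r, chr15:78305722-78305971, minus strand, for Csf2rb2, and chr3:107760470-107760719, minus strand, for Csf1. Csf2ra held the PU.1 core at positions -14 to -9 and -8 to -3 from the start and Csf3r at -86 to -81. Csf2rb2 held it on the other strand at -167 to -162 and a STAT match at -15 to -7. Csf2 held a C/EBP match at -145 to -138. A match describes the letters in these windows and is not a measured binding site, and its part in any difference was not tested.

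The genes whose log2 CPM followed each member most closely over the 19 libraries were taken from 14860 candidates by Pearson's r. For Csf1r they were Gpc3 (0.955), Ms4a6c (0.940), Clec4a3 (0.939), Hpgd (0.939) and Clec10a (0.938), and after group means were subtracted Ctss (0.982), C1qa (0.975), C1qc (0.972), Hfe (0.968) and Adgre1 (0.967). For Adgre1 they were Fcrls (0.979), C1qc (0.973), C1qa (0.966), Ctss (0.964) and C1qb (0.962), of which the C1q genes and Ctss are macrophage products. For Il34 they were Lum (0.920), Apoe (0.913), Scand1 (0.907), Gsta4 (0.906) and Tmem141 (0.905). The summed fibroblast markers had r of 0.951 with Csf1r, 0.940 with Adgre1 and 0.860 with Il34 within groups, the macrophage markers 0.981, 0.985 and 0.881, the dendritic cell markers 0.944, 0.937 and 0.843, and the satellite glia markers 0.776, 0.787 and 0.781. Within groups these 3 genes were thus high in the mice where the markers of several cell types were high. The dendritic markers summed to 81.3 to 331 CPM in DMM AP20187 and 285 to 1148 in DMM vehicle, with 4 of 8 called lower (12.4% of all genes), and to 164 to 362 and 184 to 875 in naive mice, with none called.

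For Csf3r the closest genes were Mmp8 (0.995), Plbd1 (0.989), Spn (0.988), Selplg (0.988) and Syk (0.988), and for Csf2ra Rasgrp2 (0.989), Rgs14 (0.987), Rab44 (0.983), Arhgef1 (0.983) and Cdt1 (0.983); Mmp8 is a neutrophil collagenase. For Csf2rb they were C3 (0.997), Mgam (0.996), Ceacam1 (0.996), Plscr1 (0.996) and Cmah (0.995). For Csf1 they were Ets2 (0.971), Eloa (0.971), Bmp2k (0.968), Bcl3 (0.967) and ENSMUSG00000121042 (0.966). Csf1 followed Csf2rb (r 0.964; 0.834 within groups) and the neutrophil-lineage sum (r 0.949; 0.750 within groups) and the monocyte sum (r 0.935; 0.763 within groups) more than it did its receptor gene Csf1r (r 0.354; 0.358 within groups). For Csf3, with counts in 6 libraries, the highest were Marco (0.797) and Cxcl1 (0.797), a rank set mostly by which libraries had any count.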

How the data were processed

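Per the labels, stranded poly(A) libraries were made from pooled L3 to L5 dorsal root ganglia. Per the submitters' processing notes, cutadapt, HISAT2, StringTie and the build GRCm39 were used; how reads were counted is not given in the sources used here. Counts of each gene, whole and not normalized, were deposited by the authors in 1 table with their FPKM for 36682 genes with identifiers, from which all values come. A longer deposited count matrix, of which 6448 of 56691 rows had no gene name, was not used for tests.

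The 9 genes were taken by symbol. Tests on counts used edgeR 4.0.16 under R 4.3.3 (quasi-likelihood F test, two-sided, TMM, filterByExpr with a minimum count of 10), with all 19 libraries in 1 model of 4 groups, 15 residual degrees of freedom and Benjamini-Hochberg adjustment over 22778 genes at a threshold of 0.05. The 5 contrasts were AP20187 against vehicle in DMM and in naive mice, DMM against naive with vehicle and with AP20187, and the difference between the AP20187 effects. Ratios between genes use FPKM as deposited. Correlations use log2 CPM with a prior count of 2. The procedure was tested on simulated data. The planned counts of called genes held Csf3; it is left out of them, since it was at 0 in every vehicle library.

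The genes and the 20 lists (5 of pathway genes, 15 of cell type or state markers) were chosen with earlier results of these data known. The rule for names took all 9 genes, up to 5 called genes of each pathway list whose mean reached 1 CPM in any group, Csf2rb2, Il3ra and Tyrobp, and the 5 genes most correlated with each member; other list genes are named to account for a count or were chosen after their values were seen. A few list genes are counted but not reported here by name.

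Libraries held 60984830 to 74691396 counts; a group at 0 is set at a floor of 3 counts per library. Alternatives, applied in turn, were DESeq2 1.42.0, its size factors, library totals, no filter, limma 3.58.1 on log2(FPKM + 1) and log2(FPKM + 0.1) for genes with at least 0.5 FPKM in 4 libraries, voom with sample weights, only the groups compared, each library left out, the number series of DMM vehicle mice, the replicate block, lengths of the reference annotation and Spearman's rho. Counts of the 15 marker lists by direction (DMM, then naive, of those tested) not given in the report were: B lineage 0 higher and 8 lower of 9, then 0 and 8; T and NK 1 and 0 of 7, then 1 and 0; erythroid 0 and 4 of 7, then 0 and 0; nerve injury 0 and 1 of 8, then 1 and 0; satellite glia 0 and 1 of 6, then 0 and 1; Schwann cell 0 and 3 of 6, then 0 and 0; fibroblast 0 and 0 of 6 in both; skeletal muscle 0 and 1 of 6, then 2 and 0; bone and cartilage 0 and 0 of 5 in both.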

Additional observations from a re-analysis of the deposited data

Results flagged for a closer look

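Of 31 sets of values (a gene in a group), 3 held a library whose gap to its nearest neighbour, relative to the range of its group, passed Dixon's 95% limit, which chance passes in about 1 of 20 sets. Il34 was at 26.5 CPM in naive AP20187 3, above the other 3 naive AP20187 mice. Csf2 was at 0.130 CPM in naive AP20187 5 and at 0 in the other mice of that group. Adgre1 was at 43.6 CPM in naive vehicle 3, above the other 4 naive vehicle mice.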

How the results depend on the processing

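Csf2rb was called, and Csf1 in naive mice, under every alternative and with any library left out. Counts of called genes leave out Csf3, a choice made after seeing the data. Of the other 7 genes, 1 was called in DMM against DMM vehicle 63 and 64 alone (Csf2rb), and 5 by limma voom and against DMM vehicle 32 to 34 (Adgre1 and Csf3r added). In naive mice 4 were called by voom (Adgre1 and Csf3r added) and 4 with only the groups compared (Csf2ra and Csf3r added), and voom called 1 between DMM and naive with AP20187. With a library left out, 3 to 4 were called in DMM, 2 to 3 in naive mice and 0 in the 3 other contrasts. The number of all genes called ranged over the other alternatives from 1156 (DMM vehicle 63 and 64) to 10676 (voom) in DMM, where it was 5410, from 1793 to 4542 in naive mice (2548), from 73 to 2456 for DMM against naive with AP20187 (160), from 0 to 541 (DMM vehicle 63 and 64) with vehicle (0) and from 12 to 223 for the difference of effects (26); with a library left out the ranges were 3212 to 7677, 994 to 3452, 43 to 269, 0 and 12 to 57. Median log2 fold changes of all genes under library totals were -0.12 in DMM and -0.14 in naive mice.

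Changes of sign were limited to values that were not called. For Csf1r in DMM they were 0.0223 with DESeq2, 0.0223 with its size factors, 0.00761 on log2(FPKM + 1), 0.00727 on log2(FPKM + 0.1), 0.68 with voom, 0.0538 with only the groups compared and 0.84 against DMM vehicle 32 to 34. For Il34 in DMM they were 0.16 with voom and 0.18 against DMM vehicle 32 to 34. Restricting DMM vehicle to 32 to 34 also turned DMM against naive with vehicle to -0.41 for Csf1r, -0.0413 for Csf1, -0.0564 for Il34, -0.38 for Csf2ra, -0.17 for Csf2rb, -0.49 for Csf3r and -0.26 for Adgre1, and voom gave -0.0306 for Csf2ra. The difference of effects turned to 0.0936, 0.10 and 0.0622 for Csf1 (log2(FPKM + 1), log2(FPKM + 0.1) and DMM vehicle 32 to 34), to 0.44, 0.37, 0.24 and 0.75 for Csf2rb (log2(FPKM + 1), log2(FPKM + 0.1), voom and DMM vehicle 32 to 34) and to -0.35 for Csf2ra against DMM vehicle 63 and 64. With a library left out, ranges that crossed 0 were -0.21 to 0.44 for Csf1r and -0.21 to 0.00554 for Il34 in DMM; with vehicle -0.0016 to 0.84 for Csf1r, -0.0257 to 0.16 for Csf1, -0.0520 to 0.84 for Csf2ra and -0.0523 to 1.01 for Csf3r, each turned by leaving out DMM vehicle 64; and for the difference of effects -0.15 to 0.12 for Csf1 and -0.30 to 0.53 for Csf2rb. The cause of these moves was not tested.

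Adgre1 passed with voom in DMM (1.42, adjusted p 0.00852) and naive mice (1.61, adjusted p 0.0204). Naive groups share numbers 1, 3, 4 and 5, and the labels do not say whether equal numbers mark a shared litter, day or batch. Same-number libraries correlated at 0.0235, 0.301, -0.0822 and 0.183, which cannot settle this. With the replicate block, 3 genes were called in naive mice, Adgre1 added (1.39, adjusted p 0.0405), and no other call changed. By Spearman's rho the closest gene stayed first for Adgre1, Csf2ra, Csf3r and Csf3 and changed for Csf1, Csf1r, Csf2rb and Il34. Mean ratios between genes stayed within 1 SD with reference lengths. The difference of effects was not run with fewer groups, since it needs all 4. Depth limits Csf2 and Csf3.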
